A study of Mus musculus with 18 samples.

Results

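The 33 genes described here encode the folding, quality control and stress signaling machinery of the endoplasmic reticulum (ER) and were listed by name for that function, with earlier results of these data already known. They are 33 of the 55453 gene names that were counted, and 33 of the 20787 genes that passed the filter on low counts, so no member was lost. They were measured in the colon of female Swiss Webster mice that were given azoxymethane (AOM), a colon carcinogen, at 7 weeks of age and then dextran sodium sulfate (DSS), which injures the colon lining, in 4 cycles from 9 weeks of age. Each cycle was 7 days of 2% DSS followed by 14 days of water. The chow held 0 mg or 8 mg of folic acid (FA) per kg from the 11-week age on, for 16 weeks, against 2 mg per kg in the basal diet, and were killed at 27 weeks. Laser microdissection of fixed colon sections gave polypoid dysplasia (P) and epithelium without dysplasia (ND). The 4 groups were ND without FA (0ND, n = 4), ND with 8 mg FA (8ND, n = 5), polyps without FA (0P, n = 4) and polyps with 8 mg FA (8P, n = 5). All 4 groups received AOM and DSS, so no group shows an untreated colon. The labels do not say that libraries of a group came from separate mice, and p-values then measure only the spread between these libraries.

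Secreted and membrane proteins enter the ER through the SEC61 translocon, fold with the help of chaperones and disulfide isomerases, and are sent for degradation in the cytosol when they fail to fold. When unfolded proteins build up, the sensors IRE1, PERK and ATF6 start the unfolded protein response (UPR), which raises the transcription of much of this machinery. In the colon the cells with the heaviest secretory load are goblet cells, which make mucins, and the plasma cells of the lamina propria, which make antibodies. IRE1 has a second form, IRE1β, encoded by Ern2, that is restricted to mucosal epithelium.

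Total gene counts ranged from 3500947 to 17048524 per library, and the 33 members took from 0.357% to 0.603% of them. On the first principal component of log2 expression, which held 44.6% of the variance and separated ND from P libraries, 8ND 1 and 8ND 2 lay at −28.4 and −28.6, nearer to the P libraries (32.5 to 79.4) than the other ND libraries (−88.6 to −50.4). Without these 2 libraries 10 members rather than 9 passed in 0P against 0ND (Sec61b was added, adjusted p = 0.046) and 8 rather than 10 in 8P against 8ND (Edem2 and Sel1l no longer passed, adjusted p = 0.061 and 0.076), both comparisons described below. Summed epithelial markers (10 genes such as keratins and Epcam) were present in every library, at 4389 to 5626 CPM (counts scaled to library size) in 0ND, 3856 to 5747 in 8ND, 3466 to 4972 in 0P and 3241 to 3912 in 8P. Levels of single members are given as CPM with TMM factors, which correct library size for differences in composition.

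Some of these genes hold known UPR elements in their promoters, and the matches found there are printed below. The members were listed for their ER function, so a share above that of all genes was to be expected from that choice. The promoter windows, 250 bases before to 50 bases after the start site from RefSeq on GRCm38.p6, could be matched for 26 of the 33 members and do not include Hyou1, Manf, Ern2, Atf6, Derl1, Sec61a1 or Ssr2. The ER stress response element (ERSE), searched on both strands as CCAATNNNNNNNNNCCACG, was found in 9 of the 26 members (34.6%) and in 37 of 27025 genes with a promoter window (0.137%). Its shorter relative ERSE-II, searched as ATTGGNCCACG, was found in 2 of 26 members (7.69%) and in 12 of all genes (0.0444%). The other 15 matched members held neither. The core of the XBP1-bound element, TGACGTGG, was found in 0 of 26 members and in 0.714% of all genes. The letters CCACG, which end both ERSE and ERSE-II, were in 80.8% of members and 35.5% of all genes. The matches follow with 8 bases on either side, on the strand of the gene and 5′ to 3′, with the fixed letters of the element in capitals. An element on the other strand of the gene reads in reverse, with CGTGG first.
Hspa5, chr2:34772017-34772051, + strand: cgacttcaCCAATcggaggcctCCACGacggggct
Hsp90b1, chr10:86705630-86705664, − strand: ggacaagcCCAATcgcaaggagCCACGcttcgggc
Hsp90b1, chr10:86705525-86705559, − strand: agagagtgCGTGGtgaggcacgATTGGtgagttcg
Dnajc3, chr14:118937819-118937853, + strand: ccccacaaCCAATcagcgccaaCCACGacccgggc
Creld2, chr15:88819512-88819546, + strand: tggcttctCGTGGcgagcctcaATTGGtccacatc
Pdia6, chr12:17266483-17266517, + strand: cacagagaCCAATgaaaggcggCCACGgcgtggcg
Calr, chr8:84847067-84847101, − strand: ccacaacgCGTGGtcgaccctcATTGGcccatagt
Canx, chr11:50325792-50325826, − strand: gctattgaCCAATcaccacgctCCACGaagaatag
Syvn1, chr19:6046524-6046558, + strand: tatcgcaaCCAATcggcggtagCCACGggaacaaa
Derl3, chr10:75893234-75893268, + strand: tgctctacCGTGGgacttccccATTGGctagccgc
Dnajb11 (ERSE-II), chr16:22857844-22857870, + strand: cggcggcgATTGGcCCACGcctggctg
Herpud1 (ERSE-II), chr8:94386369-94386395, + strand: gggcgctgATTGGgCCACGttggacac
Each ERSE lay between 203 and 35 bases before the start site, and Hsp90b1 held 2. A match is a description of letters and was not tested for binding.

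Levels of different members can be compared only per length of transcript, here as mean CPM per kb of exon. In 0ND the chaperones and a disulfide isomerase stood highest on this scale, with Calr at 159, Hsp90b1 at 146, Pdia3 at 99.3, Canx at 85.9 and Hspa5 at 84.2 CPM per kb. Among the sensors Ern2 was highest, at 45.1 CPM per kb in 0ND and 51.8 in 8ND against 13.1 and 12.8 for Ern1, the IRE1 gene of all tissues. In the polyps this gap was smaller, with Ern2 at 19.6 CPM per kb in 0P and 16.8 in 8P and Ern1 at 14.1 and 13.6. The lowest member was Derl3, at 3.73 CPM per kb in 0ND and 1.02 in 0P.

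The first question was whether ER genes differ between polypoid dysplasia and non-dysplastic epithelium at the same FA dose. The ER-associated degradation genes Herpud1, Edem1 and Derl3, the IRE1β gene Ern2 and the disulfide isomerase Pdia5 were lower in polyps at both doses, whereas the abundant chaperones were not. At 0 mg the call of Pdia5 was lost without certain single libraries and in a fit with a block for replicate number, both described below. In 0P against 0ND 9 of 33 members passed an adjusted p of 0.05 (27.3%, against 31.6% of all genes tested), 4 higher (15.9% of all genes) and 5 lower (15.7% of all genes). In 8P against 8ND 10 members passed (30.3%, against 28.2% of all genes) and all 10 were lower (14.3% of all genes were lower and 13.9% higher). The share of members that passed was thus near that of all genes in both comparisons. The 5 members that fell in 0P, Ern2, Pdia5, Herpud1, Edem1 and Derl3, also fell in 8P, which is 100% of the first list and 50% of the second. For all genes, 2122 fell in both, 65.1% of the 0P list and 71.3% of the 8P list. The comparisons share no libraries. The median log2 fold change of the members was 0.14 in 0P against 0ND, where that of all genes was −0.03, and −0.23 in 8P against 8ND, where that of all genes was 0. In these bulk samples, fewer cells of a type and less RNA per cell cannot be told apart.

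**Figure D1:**
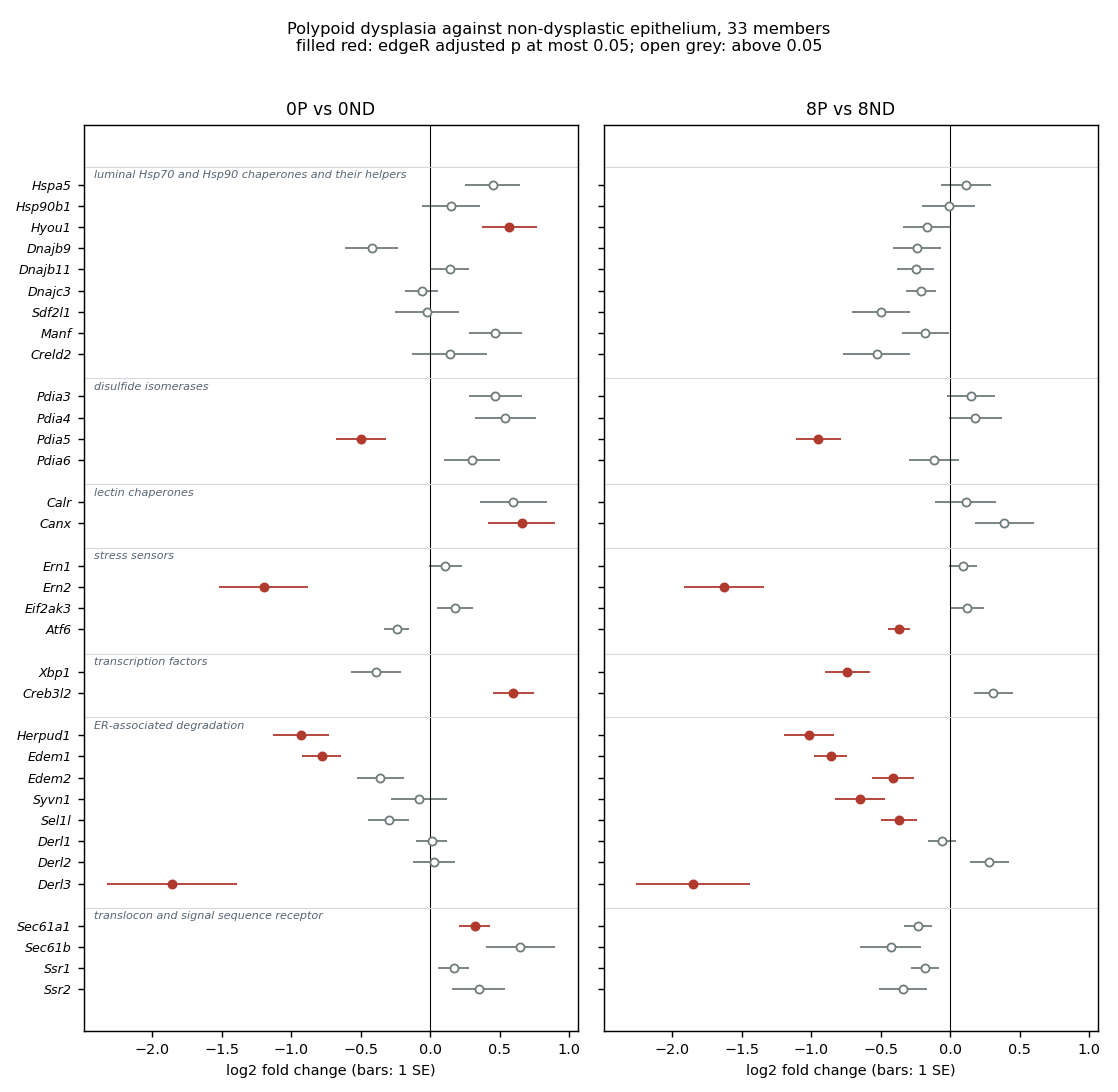
Log2 fold change (x axis, bars 1 SE) of each of the 33 members, grouped by role, for 0P against 0ND (left) and 8P against 8ND (right). Filled red points passed an edgeR adjusted p of 0.05: 4 higher and 5 lower on the left, 10 lower and none higher on the right.

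ER-associated degradation, which extracts misfolded proteins and passes them to the proteasome, held most of the members that fell. In 0P 3 of its 8 members were lower, and in 8P 6 of 8, where 15.7% and 14.3% of all genes were lower, and 2 of the 6 in 8P (Edem2 and Sel1l) did not hold when single libraries were left out. Edem1, a mannosidase-like protein that marks misfolded glycoproteins for removal, lay at 169, 152, 221 and 200 CPM in the 0ND libraries and at 110, 116, 106 and 99.9 in 0P. It was at 210, 242, 259, 235 and 199 CPM in 8ND and at 125, 162, 124, 99.7 and 121 in 8P. Every P library was below every ND library at 0 mg and at 8 mg. The log2 fold change of Edem1 was −0.78 ± 0.14 (SE) in 0P against 0ND (edgeR quasi-likelihood test, adjusted p = 2.5e-04) and −0.86 ± 0.12 in 8P against 8ND (adjusted p = 5.4e-05).

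Herpud1 is an ER membrane protein, strongly induced by ER stress, that helps assemble the degradation complex. It stood at 56.3, 61.7, 64.8 and 60.7 CPM in 0ND against 36.6, 29.3, 31.1 and 30.5 in 0P. With FA it stood at 65.3, 49.1, 90.3, 49.1 and 70.3 CPM in 8ND and 30.0, 48.4, 23.5, 27.3 and 31.4 in 8P, where the highest polyp library, 8P 2, lay just under the lowest 8ND library. The fold change was 1.91-fold lower in 0P (log2 −0.93 ± 0.20, edgeR adjusted p = 0.0013) and 2.03-fold lower in 8P (log2 −1.02 ± 0.18, adjusted p = 3.1e-04).

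Derl3 is the derlin most closely linked to professional secretory cells, and derlins form part of the channel through which misfolded proteins leave the ER. Its levels were 4.97, 6.88, 11.6 and 6.28 CPM in 0ND and 2.02, 1.92, 1.92 and 2.24 in 0P. They were 4.56, 9.51, 14.8, 9.08 and 6.68 CPM in 8ND and 1.41, 5.77, 2.03, 2.74 and 0.650 in 8P. The groups did not overlap at 0 mg, while at 8 mg the library 8P 2 lay above 8ND 1. Derl3 was 3.62-fold lower in 0P (log2 −1.86 ± 0.47, edgeR adjusted p = 0.0050) and 3.61-fold lower in 8P (log2 −1.85 ± 0.41, adjusted p = 0.0025). The other derlins did not pass, with log2 fold changes of 0.01 and −0.06 for Derl1 and 0.03 and 0.28 for Derl2 at 0 mg and 8 mg. At 8 mg Derl2 passed, as higher, in 1 of 18 fits that each left out 1 library (lowest adjusted p = 0.047).

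Syvn1, the ubiquitin ligase at the center of ER-associated degradation, and its partner Sel1l passed the test in 8P against 8ND, both lower. Neither passed in 0P against 0ND. Syvn1 was at 33.3, 35.8, 51.4, 45.1 and 33.1 CPM in 8ND and at 23.4, 40.9, 19.9, 22.8 and 20.04 in 8P, a log2 fold change of −0.65 ± 0.18 (edgeR adjusted p = 0.012). Only 8P 2 reached the 8ND range. At 0 mg Syvn1 was at 24.7 to 28.9 CPM in 0ND and 21.6 to 30.6 in 0P, below every 8ND library. Its mean was 26.3 CPM in 0ND and 25.4 in 8P, against 39.8 in 8ND. The 8P level was thus near that of 0ND, and 8ND was the group that stood apart. At 0 mg the log2 fold change of Syvn1 was −0.08 ± 0.20 (adjusted p = 0.81). The difference between the doses was −0.57 ± 0.27 (adjusted p of the interaction 0.48), so the doses were not shown to differ. Sel1l changed by −0.37 ± 0.13 in 8P (adjusted p = 0.038) and by −0.30 ± 0.15 in 0P (adjusted p = 0.12). Edem2, a mannosidase-like protein that starts glycan trimming, changed by −0.41 ± 0.15 in 8P (adjusted p = 0.047) and by −0.36 ± 0.17 in 0P (adjusted p = 0.12). The Edem2 call was lost in 14 of 18 fits that each left out 1 library, all except those without 8ND 1, 8ND 4, 8P 2 or 8P 5, and that of Sel1l in 6 of 18 (8ND 1, 3 and 5, 8P 1, 3 and 5), with an adjusted p of up to 0.15 and 0.097.

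Among the 4 stress sensors Ern2 showed the largest difference in both comparisons. Its levels were 115, 112, 148 and 160 CPM in 0ND and 66.6, 46.9, 44.2 and 74.4 in 0P. They were 188, 125, 106, 179 and 169 CPM in 8ND and 52.4, 49.5, 43.4, 18.4 and 85.3 in 8P. All P libraries were below all ND libraries at each dose. Ern2 was 2.30-fold lower in 0P (log2 −1.20 ± 0.32, edgeR adjusted p = 0.0087) and 3.08-fold lower in 8P (log2 −1.63 ± 0.29, adjusted p = 5.8e-04). Its relative Ern1 changed by 0.11 ± 0.12 and 0.09 ± 0.10 on the log2 scale (adjusted p = 0.50 and 0.55), and Eif2ak3, the gene of PERK, by 0.18 ± 0.13 and 0.12 ± 0.12 (adjusted p = 0.33 and 0.49).

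Atf6, which is cut in the Golgi under stress to release a transcription factor, lay at 86.3 to 95.7 CPM in 0ND and 69.6 to 79.6 in 0P, and at 90.0 to 113 in 8ND and 68.2 to 81.7 in 8P. The groups were separate at both doses although the difference was small, with log2 fold changes of −0.24 ± 0.09 in 0P (edgeR adjusted p = 0.061) and −0.37 ± 0.08 in 8P (adjusted p = 0.0027).

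The 2 transcription factors on the list went in opposite directions. Xbp1, whose mRNA is spliced by IRE1 and whose product drives the secretory program of plasma cells and Paneth cells, was at 169, 183, 240, 166 and 172 CPM in 8ND and 106, 164, 91.5, 112 and 86.6 in 8P. Every 8P library was below every 8ND library, and the log2 fold change was −0.74 ± 0.16 (edgeR adjusted p = 0.0018). At 0 mg the ranges, 111 to 172 CPM in 0ND and 96.6 to 123 in 0P, overlapped and the log2 fold change was −0.39 ± 0.18 (adjusted p = 0.11). These counts sum all forms of the mRNA and do not show its splicing. Creb3l2, a membrane-bound factor that promotes export from the ER, was at 49.2, 56.3, 59.1 and 62.8 CPM in 0ND and 77.2, 80.0, 85.5 and 102 in 0P, all higher, with a log2 fold change of 0.60 ± 0.15 (adjusted p = 0.0048). In 8P its log2 fold change was 0.31 ± 0.14 (adjusted p = 0.10). There Creb3l2 passed, as higher, in 1 of 18 fits that each left out 1 library, with a lowest adjusted p of 0.013. Its log2 fold change in these fits ran from 0.21 (without 8P 2) to 0.42 (without 8P 3).

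**Figure D2:**
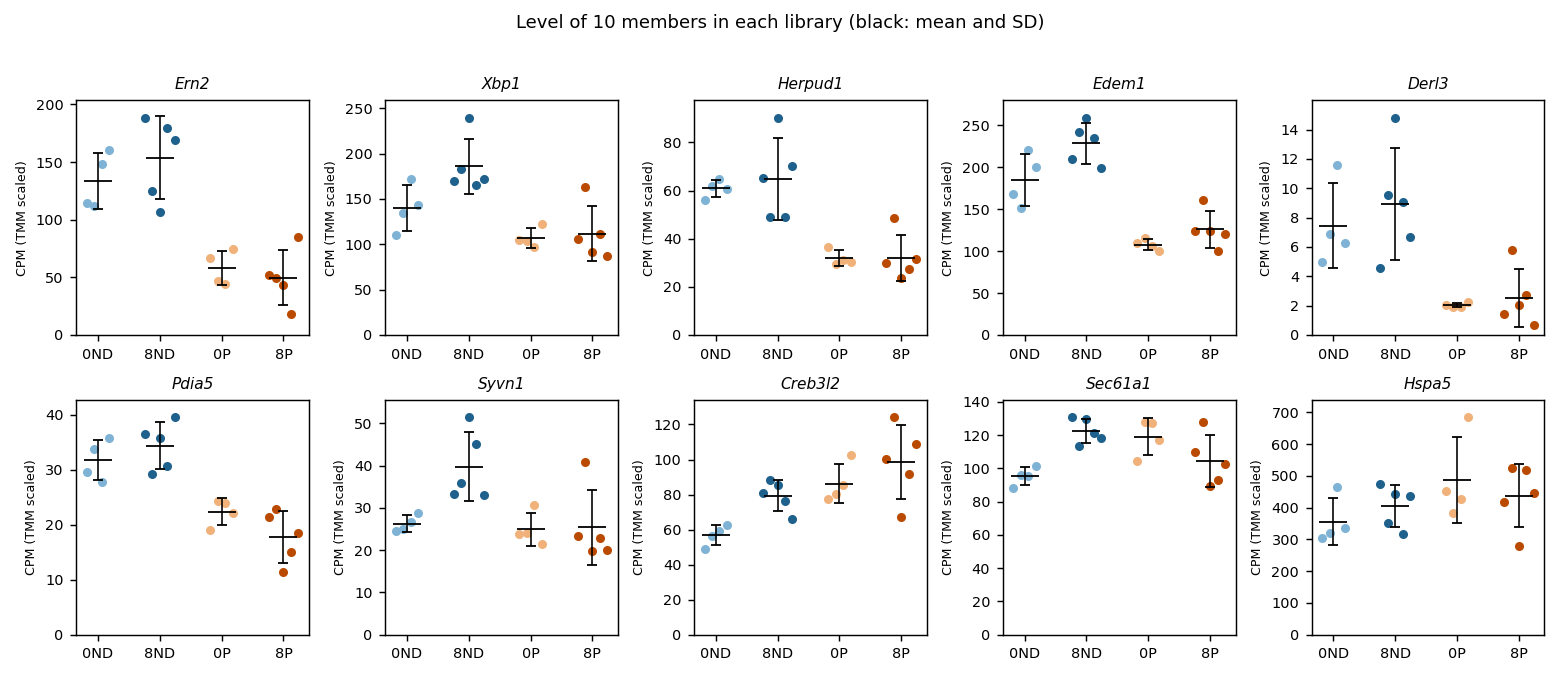
CPM (y axis, scaled by TMM factors) of 10 members in each of the 18 libraries by group, with the mean and SD in black. Ern2, Herpud1 and Edem1 show no overlap between ND and P at either dose, and Sec61a1 and Creb3l2 have their lowest mean in 0ND.

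The luminal chaperones of the Hsp70 and Hsp90 families and their helpers mostly did not pass the test in polyps. Of these 9 members 1 was higher in 0P and none passed in 8P. Hspa5, the gene of the master chaperone BiP that holds the sensors inactive, was at 306, 320, 464 and 335 CPM in 0ND and 453, 383, 426 and 684 in 0P, overlapping ranges with a log2 fold change of 0.45 ± 0.20 (edgeR adjusted p = 0.10). In 8P against 8ND its log2 fold change was 0.11 ± 0.18 (adjusted p = 0.69). Hsp90b1, the gene of GRP94, gave 0.15 ± 0.21 and −0.01 ± 0.19. Hyou1, an exchange factor and chaperone that works with BiP, was the member that rose, from 74.1, 84.6, 90.7 and 80.0 CPM in 0ND to 124, 110, 126 and 131 in 0P (log2 0.57 ± 0.20, adjusted p = 0.030). The 0P libraries were all above the 0ND libraries. The call of Hyou1 was lost without 0ND 1, 0ND 2, 0ND 4, 0P 1 or 0P 4, with an adjusted p of up to 0.079. In 8P its log2 fold change was −0.17 ± 0.17 (adjusted p = 0.51).

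The 6 remaining helpers had log2 fold changes between −0.42 (Dnajb9) and 0.47 (Manf) in 0P and between −0.53 (Creld2) and −0.18 (Manf) in 8P, none past the test. Dnajb9, Dnajb11 and Dnajc3 are J-domain partners of BiP, Sdf2l1 binds Dnajb11, and Manf and Creld2 are small ER proteins induced by stress. The library 8P 2 was the highest of the 8P libraries for Hyou1 (157 CPM against 56.4 to 98.9), Sdf2l1 (23.4 against 9.67 to 16.7) and Creld2 (39.8 against 11.6 to 24.6). Without 8P 2 the number of members lower in 8P was 15 rather than 10, the added members being Hyou1 (log2 −0.38, adjusted p = 0.043), Sdf2l1 (−0.69, adjusted p = 0.011), Creld2 (−0.83, adjusted p = 0.0056), Sec61a1 (−0.31, adjusted p = 0.012) and Ssr2 (−0.53, adjusted p = 0.0074).

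Of the 4 disulfide isomerases, which form and rearrange disulfide bonds, Pdia5 fell at both doses and the others did not pass. Pdia5 was at 29.6, 33.9, 27.8 and 35.7 CPM in 0ND and 19.0, 24.4, 24.01 and 22.1 in 0P, and at 36.5, 29.2, 35.8, 30.7 and 39.6 in 8ND and 21.4, 22.9, 11.4, 15.1 and 18.5 in 8P. No P library reached an ND library of its dose. The log2 fold change was −0.50 ± 0.18 in 0P (edgeR adjusted p = 0.035) and −0.95 ± 0.16 in 8P (adjusted p = 2.2e-04). The call at 0 mg was lost without 0ND 2, 0ND 4, 0P 1, 0P 3 or 0P 4, with an adjusted p of up to 0.10. Pdia3, Pdia4 and Pdia6 had log2 fold changes of 0.47, 0.54 and 0.30 in 0P and of 0.15, 0.18 and −0.12 in 8P. Pdia3 did not overlap between 0ND (250 to 345 CPM) and 0P (360 to 552 CPM).

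The lectin chaperones calnexin (Canx) and calreticulin (Calr) hold glycoproteins while they fold. Canx was at 355, 396, 463 and 399 CPM in 0ND and 618.3, 451, 496 and 974 in 0P. The log2 fold change was 0.66 ± 0.24 (edgeR adjusted p = 0.044), and 0P 4 stood far above the others. Without 0P 4 it was 0.37 (adjusted p = 0.23), and the call was also lost without 0ND 1, 0ND 2, 0ND 3, 0ND 4, 8ND 3, 0P 1 or 8P 5. In 8P it was 0.39 ± 0.21 (adjusted p = 0.19). Calr gave 0.60 ± 0.24 in 0P (adjusted p = 0.070) and 0.11 ± 0.22 in 8P, and 0P 4 was again its highest library, at 1026 CPM against 517 to 694 in the other 0P libraries.

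The translocon carries nascent chains into the ER, and the signal sequence receptor sits beside it. Sec61a1, the pore subunit, rose from 88.4, 96.3, 95.6 and 101 CPM in 0ND to 104, 128, 127 and 117 in 0P, with no overlap (log2 0.32 ± 0.11, edgeR adjusted p = 0.032). The call was lost without 0ND 1, 0ND 2, 0ND 3, 0P 2, 0P 3 or 0P 4, with an adjusted p of up to 0.091. Sec61b, Ssr1 and Ssr2 had log2 fold changes of 0.65, 0.17 and 0.35 in 0P and of −0.43, −0.18 and −0.34 in 8P, none past the test. All 4 members of this role were above 0 in 0P and below 0 in 8P.

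In counts of groups that did not overlap, 4 members were higher in 0P than in 0ND in every library (16.2% of all genes) and 7 were lower (16.1% of all genes). In 8P against 8ND 7 members were lower in every library, against 8.94% of all genes, and 0 were higher, against 8.26% of all genes. Asking for a change of at least 2-fold on top of the edgeR adjusted p left Ern2 and Derl3 in 0P (15.9% of all genes) and Ern2, Herpud1 and Derl3 in 8P (12.4% of all genes). Of the 11 members with an ERSE or ERSE-II printed above, 2 fell and 1 rose in 0P and 3 fell in 8P (Herpud1, Syvn1 and Derl3). Of the 15 matched members with neither, 2 fell and 1 rose in 0P and 5 fell in 8P (Pdia5, Xbp1, Edem1, Edem2 and Sel1l). By the edgeR adjusted p alone, 15.7% of all genes fell and 15.9% rose in 0P, and 14.3% fell in 8P. These counts are small, and a difference between members with and without an element was not tested.

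Between P and ND of the same dose, the sums of goblet cell and of plasma and B cell markers moved with the members that fell, while that of Paneth-like markers did not. Between 0ND and 8ND the goblet cell sum also differed, at means of 8902 and 15848 CPM. There 31 of 33 members had a higher mean with 8 mg and none passed the test. The summed level of 10 goblet cell markers, as CPM of all gene counts, was 8015 to 9900 in 0ND and 1836 to 3857 in 0P, and 12059 to 18815 in 8ND and 978 to 4029 in 8P. Of these markers 8 of 10 were lower in 0P and 9 of 10 in 8P, and none was at 0, with Muc2, the main colonic mucin, at means of 4175, 9288, 1260 and 1535 CPM in 0ND, 8ND, 0P and 8P. The sum of 12 plasma and B cell markers was 2821 to 5249 CPM in 0ND, 1237 to 1670 in 0P, 4120 to 10037 in 8ND and 735 to 3649 in 8P. Of these, 4 were lower and 1 higher in 0P, and 7 were lower and 1 higher in 8P, and none was at 0. The library with the highest plasma and B cell sum in each group (0ND 3, 8ND 3, 0P 4 and 8P 2) was also the highest for Derl3. In 0P, however, Derl3 ranged only from 1.92 to 2.24 CPM. This match was not particular to Derl3, since the same libraries were also the highest for Hyou1, Sdf2l1, Manf, Creld2 and Xbp1, among others. The library with the lowest goblet cell sum was also the lowest for Ern2 in 0ND (0ND 2) and 8P (8P 4), but not in 8ND or 0P, and in no group was the library with the highest goblet cell sum the highest for Ern2. The sum of 8 Paneth-like markers moved the other way, from 81.4 to 207 CPM in 0ND to 2582 to 3847 in 0P and from 435 to 1563 in 8ND to 1669 to 4785 in 8P. Most of this sum was 1 gene, Pla2g2a, at means of 100, 607, 2577 and 2405 CPM in 0ND, 8ND, 0P and 8P. Of the 7 tested, 5 were called higher in 0P and 2 in 8P, and Defa5 was at 0 in both ND groups. In 8P against 8ND log2 fold changes were above 0 for 5 of the 7 and below 0 for 2. Mean Ang4 was 99.1 CPM in 8ND and 33.1 in 8P, and mean Itln1 87.6 and 78.8. The part of these cell types in the differences of Ern2, Xbp1, Pdia5, Herpud1, Edem1, Syvn1 and Derl3 was not tested.

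**Figure D3:**
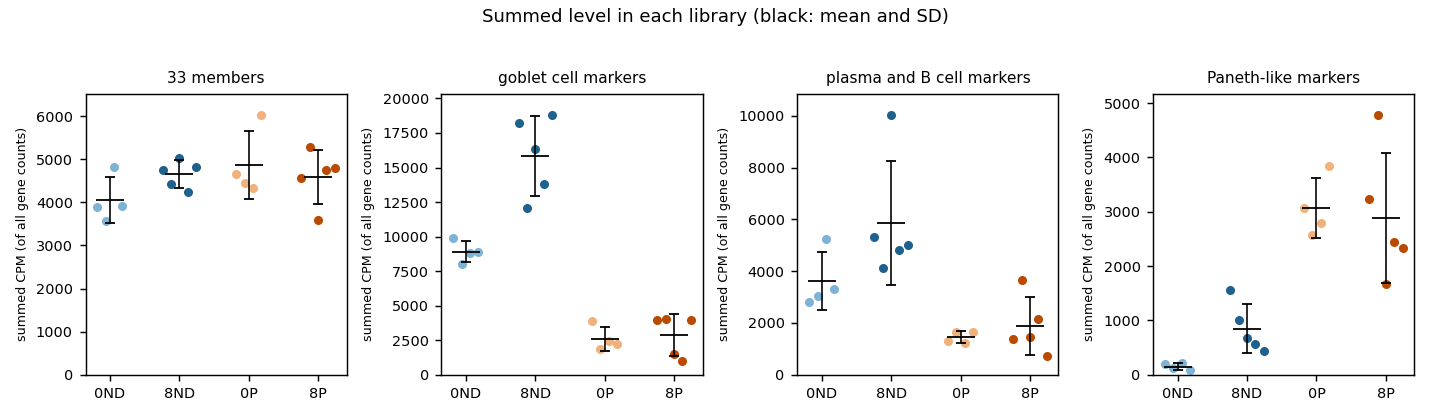
Summed CPM (y axis, of all gene counts) of the 33 members and of goblet cell, plasma and B cell, and Paneth-like markers in each of the 18 libraries by group, with the mean and SD in black. Goblet cell sums are at most 4029 in the P libraries and at least 8015 in the ND libraries, while the sums of the members overlap in all 4 groups.

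The summed level of the 33 members did not separate the tissues. It was 3573 to 4810 CPM in 0ND, 4337 to 6030 in 0P, 4231 to 5036 in 8ND and 3585 to 5273 in 8P. Of the other markers, all 8 of smooth muscle fell at both doses, from 1306 to 3209 CPM in 0ND to 528 to 960 in 0P and from 1300 to 2178 in 8ND to 402 to 849 in 8P. Fibroblast (3 of 10 lower and 4 higher in 0P, 2 lower and 1 higher in 8P), endothelium (2 of 8 lower and 1 higher, 3 lower), macrophage (3 of 9 higher, 0 in 8P) and T and NK cell markers (2 of 8 tested lower and 1 higher, 1 lower and 1 higher) were mixed. Neutrophil markers were higher for 5 and lower for 1 of 6 tested at each dose, and epithelial markers lower for 4 and higher for 1 of 10 in 0P and lower for 7 and higher for 1 in 8P.

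Genes of the same pathways outside the 33 members were described from 4 lists. Of 19 further genes of UPR signaling, 2 were higher and 3 lower in 0P, and 2 higher and 5 lower in 8P, which is 26.3% and 36.8% of the list against 31.6% and 28.2% of all genes. Creb3l1, a membrane-bound factor related to Creb3l2, fell from a mean of 209 ± 50.2 CPM (SD, n = 4) in 0ND to 73.8 ± 9.32 in 0P, and from 210 ± 28.3 (n = 5) in 8ND to 59.1 ± 26.4 in 8P, with log2 fold changes of −1.50 ± 0.29 (edgeR adjusted p = 6.4e-04) and −1.83 ± 0.26 (adjusted p = 6.9e-05). Creb3l1 and Creb3l2 thus differed in direction at 0 mg. Tmbim6, an ER membrane protein that limits cell death, also fell at both doses (log2 −0.67 and −0.61, adjusted p = 2.5e-04 and 2.9e-04). Eif2s1, the translation factor that PERK phosphorylates, rose at both (log2 0.96 and 0.64, adjusted p = 1.5e-04 and 0.0023).

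Of 38 further genes of folding and glycan quality control that were tested, out of 40, 8 were higher and 2 lower in 0P, and 1 higher and 6 lower in 8P, 26.3% and 18.4% of the list against the same shares of all genes. Agr2, a disulfide isomerase that goblet cells need to make mucin, was at 248 ± 31.1 CPM in 0ND, 88.6 ± 41.9 in 0P, 380 ± 82.6 in 8ND and 85.1 ± 53.8 in 8P, with log2 fold changes of −1.49 ± 0.42 (edgeR adjusted p = 0.012) and −2.16 ± 0.38 (adjusted p = 5.4e-04). Txndc5 and Selenom, which carry thioredoxin-like folds, fell in 8P (log2 −0.86 and −1.42, adjusted p = 8.3e-04 and 0.0020). P4hb, the gene of the founding disulfide isomerase, and Cnpy4 rose in 0P (log2 0.65 and 0.76, adjusted p = 0.0085 and 0.010).

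Of 25 further genes of ER-associated degradation, 2 were higher and 4 lower in 0P and 1 higher and 5 lower in 8P. With both directions together this was 24% of the list each time, below the share of all genes. In the lower direction alone, the share of all genes was 15.7% in 0P and 14.3% in 8P. Ngly1, which strips glycans from extracted proteins, fell at both doses (log2 −0.82 and −0.54, edgeR adjusted p = 4.0e-05 and 8.2e-04). Fam8a1, a part of the Syvn1 complex, fell in 0P (log2 −0.84, adjusted p = 5.4e-04), while Vcp, the ATPase that pulls proteins out of the membrane, rose there (log2 0.75, adjusted p = 0.0027). Man1b1 and Edem3, both of the glycan trimming step, fell in 8P (log2 −0.58 and −0.42, adjusted p = 3.3e-04 and 0.0022).

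Of 33 further genes of translocation and N-glycosylation, 6 were higher and 0 lower in 0P, and 1 was higher and 6 lower in 8P. With both directions together this was 18.2% and 21.2% of the list, also below the share of all genes. By direction, 15.9% of all genes were higher and 15.7% lower in 0P, and 13.9% higher and 14.3% lower in 8P. Those named in 0P were Dad1 and Ostc, subunits of the oligosaccharyltransferase, and Sec11a, the signal peptidase (log2 0.62, 0.35 and 0.37, edgeR adjusted p = 0.0064, 0.015 and 0.013). Those named in 8P were Krtcap2, another oligosaccharyltransferase subunit, Spcs3 of the signal peptidase, and Tram2 (log2 −0.90, −0.36 and −0.77, adjusted p = 9.5e-05, 0.0044 and 0.0044).

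The second question was whether the FA dose changed these genes within a tissue. In non-dysplastic epithelium 31 of 33 members had a higher mean with 8 mg, against 10517 of 20787 for all genes, but no member passed the test. In 8ND against 0ND the count was 0 of 33 members by edgeR, DESeq2 and limma-voom, against 0.0481% of all genes by edgeR. At an unadjusted p under 0.05 there were 11 members, all higher, against 5.68% of all genes that were higher at this p. The median log2 fold change was 0.20, against 0 for all genes. Between libraries of a group the members' median level varied with an SD of 0.179 on the log2 scale. The members are thus not separate observations. Hyou1, Sdf2l1, Creb3l2, Syvn1 and Sec61a1 were higher in every 8ND library than in any 0ND library, 5 of 33 members against 2.15% of all genes.

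Sec61a1 had the smallest p of these, at 88.4 to 101 CPM in 0ND and 131, 114, 129, 121 and 118 in 8ND (log2 0.36 ± 0.11, edgeR adjusted p = 0.18). Creb3l2 stood at 80.6, 88.4, 85.5, 76.1 and 66.3 CPM in 8ND against at most 62.8 in 0ND (log2 0.48 ± 0.15, adjusted p = 0.20). For Syvn1 the log2 fold change was 0.59 ± 0.20 (adjusted p = 0.26), with 24.7, 25.04, 26.6 and 28.9 CPM in 0ND. The other 8 with an unadjusted p under 0.05 were Hyou1, Sdf2l1 and Manf of the chaperones, Xbp1, Edem1, Edem2, Sec61b and Ssr2, with log2 fold changes from 0.31 (Edem1) to 0.60 (Sec61b). The sums of goblet cell, Paneth-like (435 to 1563 CPM against 81.4 to 207) and fibroblast markers (1473 to 1751 CPM against 1330 to 1457) were also higher in every 8ND library than in any 0ND library, and 1 of 7 Paneth-like markers tested was called higher. Single markers were mixed: log2 fold changes were above 0 for 7 and below 0 for 3 of 10 goblet cell markers. For fibroblast markers they were above 0 for 4 and below 0 for 6 of 10 (median −0.01), and 0 of either list was called. The sums of the other 7 marker lists overlapped. Their part in these values was not tested. Without 8ND 1 and 8ND 2 the members' median log2 fold change was 0.24 and no member passed.

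In the lists of further genes 0 passed in 8ND against 0ND. The genes with the smallest p were Atf4 (log2 0.23, edgeR adjusted p = 0.59), the factor translated when PERK is active, Selenof (0.34, adjusted p = 0.11), Edem3 (0.30, adjusted p = 0.26) and Ssr3 (0.30, adjusted p = 0.20).

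In polyps no member passed the test of dose. In 8P against 0P 0 of 33 members passed by edgeR, DESeq2 or limma-voom (0% of all genes by edgeR), and 0 had an unadjusted p under 0.05, against 10.1% of all genes. The members' median log2 fold change was −0.07, against 0.01 for all genes, and single values ran from −0.49 (Sec61b) to 0.32 (Edem2 and Dnajb9). The smallest adjusted p was 0.50. The genes of the further lists with the smallest p were Trib3 (log2 0.77), Tmx3 (0.42), Herpud2 (0.30) and Srp68 (−0.32), and 0 passed.

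**Figure D4:**
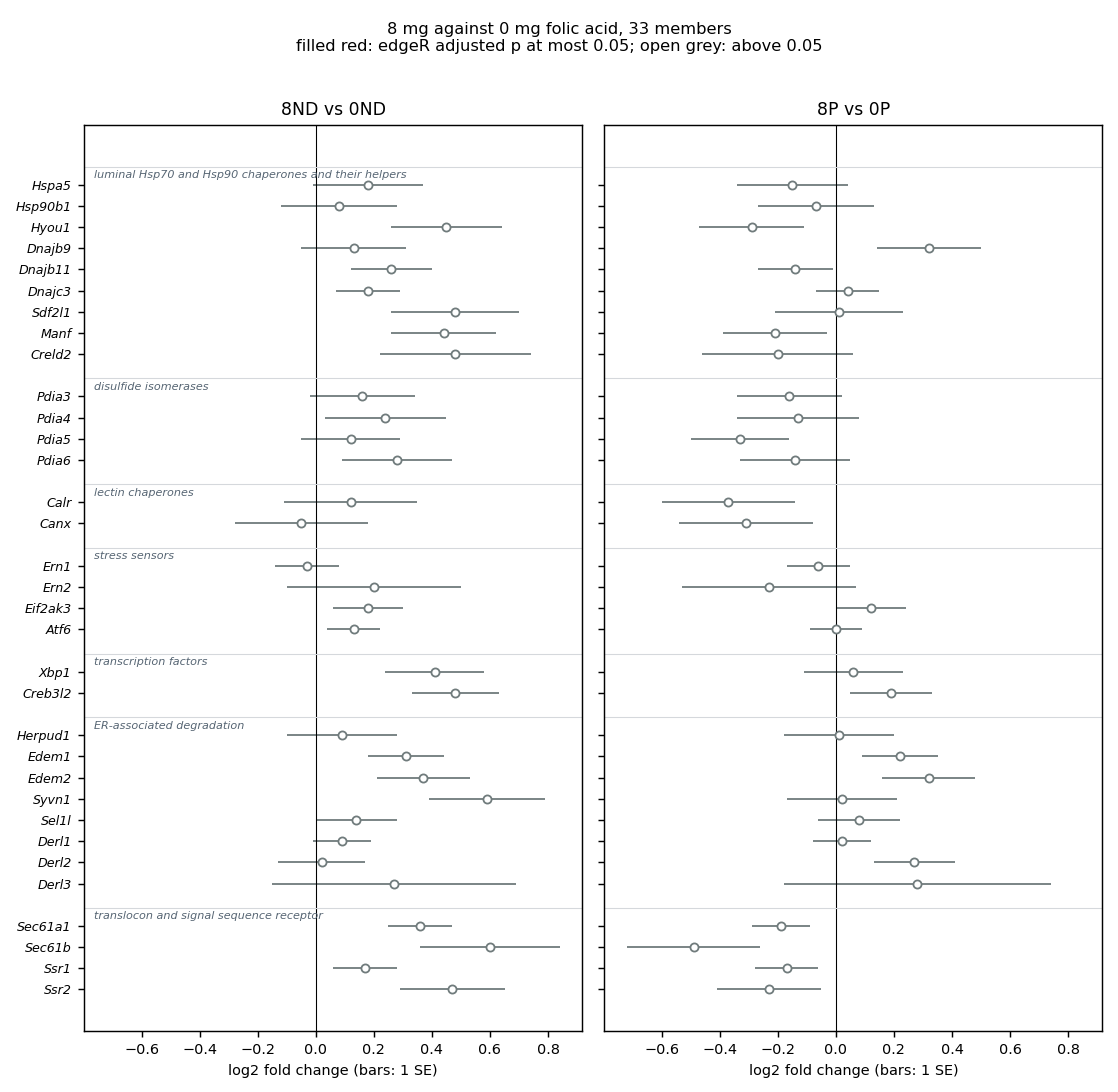
Log2 fold change (x axis, bars 1 SE) of each of the 33 members, grouped by role, for 8ND against 0ND (left) and 8P against 0P (right). No point is filled, since none passed an edgeR adjusted p of 0.05; 31 of 33 lie above 0 on the left and 14 on the right.

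The difference of the tissue effect between the doses is the interaction (8P against 8ND minus 0P against 0ND). It was below 0 for 30 of 33 members, against 10638 of 20787 for all genes. Here too the members are not separate observations, and 0 members passed by edgeR, DESeq2 or limma-voom (0% of all genes by edgeR). At an unadjusted p under 0.05 there were 7 members, all below 0, against 5.30% of all genes that were below 0 at this p. They were all 4 members of the translocon and signal sequence receptor (Sec61a1 −0.55 ± 0.15, Sec61b −1.08 ± 0.34, Ssr1 −0.35 ± 0.15 and Ssr2 −0.70 ± 0.25 on the log2 scale) and Hyou1 (−0.74 ± 0.26), Manf (−0.65 ± 0.25) and Dnajb11 (−0.40 ± 0.19). The smallest adjusted p was 0.31, for Sec61a1. The median over the members was −0.34, against −0.01 for all genes. Each of these values combines all 4 groups, so the higher 8ND levels enter it too. The genes of the further lists with the smallest interaction p were Atf6b (log2 −0.36), Txndc5 (−0.71), Nploc4 (−0.42) and Krtcap2 (−0.65), and 0 passed.

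The annotation limits some of these counts. In GENCODE M21 on GRCm38 the members Manf, Pdia3, Pdia6, Syvn1 and Derl2 overlap another protein-coding gene on the opposite strand, Dcaf1, Catsper2, Atp6v1c2, Mrpl49 and Mis12 in that order, Manf also overlaps Rbm15b on its own strand, and Dnajb11, Herpud1 and Sec61a1 overlap an antisense RNA. Whether strand was used in counting is not given in the sources used here. Among the members that fell at both doses, Ern2 (chr7:122169893-122186207, − strand), Edem1 (chr6:108828641-108859356, + strand) and Derl3 (chr10:75893413-75895941, + strand) overlap no other annotated gene.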

How the data were processed

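RNA from laser microdissected, formalin-fixed colon (40 ng per sample) was made into libraries with the SMARTer Stranded Pico V2 kit and sequenced by the authors, who aligned reads with Bowtie to mm10 and deposited raw counts per gene made with HTSeq (versions not given in the sources used here). The 5 HTSeq summary lines were left out. Of all counts with these lines included, alignments that were not unique made up 40.1% to 62.2%. Reads assigned to no feature made up 22.0% to 40.7%.

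From these counts, genes were filtered with filterByExpr of edgeR 4.0.16 (R 4.3.3) at a minimum count of 10, scaled with TMM factors, and tested with the robust quasi-likelihood test in 1 fit of all 18 libraries with a mean per group. Contrasts were 8ND against 0ND, 8P against 0P, 0P against 0ND, 8P against 8ND and the interaction, and the Benjamini-Hochberg adjustment ran over all 20787 genes, with a threshold of 0.05. Each SE was obtained from the log2 fold change and its F statistic (absolute change over the root of F). Member levels are TMM-scaled CPM and marker sums CPM of all gene counts. DESeq2 1.42.0, a tool the study used, and limma 3.58.1 (voom) were alternatives. In the 32 within-group pairs of libraries chi-square per gene was at least 10.4, so none was a repeat of another.

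The members and lists were chosen with earlier results of these data known. All 33 members are named; from each list of further pathway genes the 3 genes with the smallest p in 0P against 0ND and in 8P against 8ND and 1 in each other comparison are named. Depth limits low members such as Derl3. Promoter windows and coordinates come from RefSeq (GRCm38.p6) and GENCODE M21.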

Additional observations from a re-analysis of the deposited data

Results flagged for a closer look

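In 176 sets of values (33 members and 11 sums, each in 4 groups), 10 held a library whose gap to the nearest other, divided by the range of its group, was over Dixon's critical value, where chance gives about 1 in 20. Among the members these were Dnajb9 in 0ND 3 (50.6 CPM, next 30.6), Manf in 0ND 3 (59.2 CPM, next 41.3), Canx in 8P 4 (797 CPM, next 480.3), Xbp1 in 8ND 3 (240 CPM, next 183), Syvn1 in 8P 2 (40.9 CPM, next 23.4) and Derl2 in 8ND 2 (59.8 CPM, next 46.7). Among the marker sums they were plasma and B cell in 8ND 3 (10037 CPM, next 5321), smooth muscle in 8ND 5 (2178 CPM, next 1493), and endothelium and macrophage in 0ND 1 (225 and 339 CPM, next 157 and 242). Each was the highest library of its group. Xbp1 and the plasma and B cell sum stood out in the same library, 8ND 3. Without 8ND 3 Xbp1 remained lower in 8P than in 8ND.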

How the results depend on the processing

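Over 105 results and their alternatives, 2613 of 2710 values kept their direction and side of the threshold, 61 lost and 36 gained significance, and none turned direction. The 105 were member results whose change exceeded its SE in the main fit or that passed in any fit. Those nearest 0 were thus left out, which limits what the absence of turned directions shows. Only the 9 calls in 0P against 0ND and the 10 in 8P against 8ND could lose significance. Genes called in 8ND against 0ND (10) became 313 with DESeq2, 3 with limma-voom, 41 without a filter, 28 with the replicate block and 0 without 8ND 1 and 8ND 2. In 8P against 0P (0) they became 17 with DESeq2, 2 with RLE factors, 2 without a filter, 3 with the replicate block and 3 without 8ND 1 and 8ND 2. In the interaction (0) they became 81 with DESeq2 and 1 without a filter. Asking also for 2-fold left 3300 genes and 2 members in 0P against 0ND and 2568 genes and 3 members in 8P against 8ND.

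Leaving out each library in turn gave 2 (without 0ND 4) to 157 (without 8ND 3) genes in 8ND against 0ND, 0 to 5 (without 0P 1) in 8P against 0P, 5302 to 6814 in 0P against 0ND, 4970 to 6415 in 8P against 8ND and 0 to 26 (without 8ND 3) in the interaction. For members it gave 6 (without 0ND 1) to 13 (without 8P 2) in 0P against 0ND, 8 (without 8ND 3) to 15 (without 8P 2) in 8P against 8ND, and 0 elsewhere. Where a count moved, the cause was not tested.

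Replicate numbers recur in the groups, but no label says that they pair libraries, and not every same-numbered pair of ND and P libraries deviated together: correlations of their deviations ran from −0.068 to 0.27 over 9 pairs, 5 of them at or under 0.1, against −0.231 to 0.192 over 32 other pairs, 29 of them at or under 0.1. As a hint from the data, 6 of 9 ND libraries correlated best with their own number. With the replicate block, 5 members passed in 0P against 0ND rather than 9 (Hyou1, Pdia5, Canx and Sec61a1 were lost) and 8 rather than 10 in 8P against 8ND (Edem2 and Sel1l were lost). Why these calls were lost was not tested.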
